A study of Mus musculus with 21 samples.

Results

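The genes described here encode the proteins of the mitochondrial ribosome. They are the 78 protein-coding mouse genes whose symbol starts with Mrpl or Mrps followed by a digit, found by Entrez ID among the 30519 genes of the count table, or 0.256% of them. By the role of their products, 51 belong to the large subunit and 26 to the small one. Of the large-subunit genes, 30 have a counterpart in bacterial ribosomes and 21 are specific to mitochondria. Of the small-subunit genes, 16 have a bacterial counterpart and 10 are specific to mitochondria. The last, Mrps36, carries the family name but encodes a subunit of the 2-oxoglutarate dehydrogenase complex of the citric acid cycle.

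The mitochondrial ribosome works in the mitochondrial matrix and makes the few proteins encoded by mitochondrial DNA, all of them subunits of the respiratory chain and ATP synthase. Its ribosomal RNAs are transcribed from mitochondrial DNA, whereas its proteins are encoded in the nucleus, made in the cytosol and imported. Blood stem cells are known for a low rate of protein synthesis, and erythroid progenitors depend on mitochondria for haem synthesis.

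The study profiled RNA from bone marrow cells of mice with changes in Etv6, which encodes a transcriptional repressor of the ETS family needed by adult blood stem cells. The sorted populations, HSC (haematopoietic stem cells) and MEP (megakaryocyte-erythroid progenitors), were taken as labelled, with 21 libraries in 8 groups. HSC came with WT Etv6 (3 libraries), the P216L change (3), the S211I change (2) or both changes together, called the double mutant (3). MEP libraries numbered 2, 3, 2 and 3 in the same order. The genotype labels spell the second change P211I and the titles S211I, the form used here. The labels give no age, sex, allele dosage or other allele, and do not say how either population was gated or whether the libraries of a group came from different mice. The p-values therefore reflect differences among libraries, which may be technical. Counts per gene cannot show a point change, so the genotype labels were not checked against the data.

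Promoter letters were read for the members because Etv6 belongs to the ETS family, whose members recognise a GGAA core, and because mitochondrial genes of the nucleus are known targets of the factors NRF1 and YY1. Windows of 300 bases (250 before to 50 after the start site, RefSeq, GRCm38.p6) were matched for 69 of the 78 members, and each motif was searched on both strands. The ETS letters CCGGAAG occurred in 26 of the 69 members (37.7%) and in 12.9% of 17492 protein-coding genes with such windows. The YY1 letters AAGATGGC occurred in 12 members (17.4%) against 3.57% of those genes, and the NRF1 letters GCATGCGC in 8 (11.6%) against 3.94%. The NF-Y letters CCAAT were found in 27 members (39.1%) against 42.3%, and the E-box CACGTG in 5 (7.25%) against 8.91%. NRF1 and ETS letters stood together in 4 members (5.8%) against 0.846%. Matches of different motifs may overlap, and a match describes letters, not binding.

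The 4 windows shown are those of the members with the smallest p in the comparison of WT MEP with WT HSC below that also hold any of the 5 motifs. Capitals mark the matches, and each sequence runs 5′ to 3′ on the strand of its gene, with the start site at base 251.
Mrps18b, chr17:35916391-35916690, minus strand: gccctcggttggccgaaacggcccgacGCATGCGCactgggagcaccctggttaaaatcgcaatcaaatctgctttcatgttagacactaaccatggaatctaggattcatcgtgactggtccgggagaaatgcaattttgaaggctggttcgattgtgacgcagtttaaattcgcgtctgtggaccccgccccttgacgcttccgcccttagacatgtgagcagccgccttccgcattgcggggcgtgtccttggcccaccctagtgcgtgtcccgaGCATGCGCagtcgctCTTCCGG
Mrps27, chr13:99344536-99344835, plus strand: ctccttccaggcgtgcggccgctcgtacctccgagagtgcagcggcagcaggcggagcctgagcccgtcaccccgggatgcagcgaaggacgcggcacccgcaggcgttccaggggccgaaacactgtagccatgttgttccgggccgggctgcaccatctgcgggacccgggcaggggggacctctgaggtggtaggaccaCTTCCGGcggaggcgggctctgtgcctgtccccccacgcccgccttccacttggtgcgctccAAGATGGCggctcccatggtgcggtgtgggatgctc
Mrpl49, chr19:6057706-6058005, minus strand: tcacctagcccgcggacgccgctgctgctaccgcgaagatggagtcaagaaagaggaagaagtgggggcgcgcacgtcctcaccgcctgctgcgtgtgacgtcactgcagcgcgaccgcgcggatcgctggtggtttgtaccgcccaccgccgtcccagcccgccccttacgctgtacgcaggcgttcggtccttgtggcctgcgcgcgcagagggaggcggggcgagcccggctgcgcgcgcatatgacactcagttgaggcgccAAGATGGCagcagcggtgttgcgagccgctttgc
Mrpl50, chr4:49521034-49521333, minus strand: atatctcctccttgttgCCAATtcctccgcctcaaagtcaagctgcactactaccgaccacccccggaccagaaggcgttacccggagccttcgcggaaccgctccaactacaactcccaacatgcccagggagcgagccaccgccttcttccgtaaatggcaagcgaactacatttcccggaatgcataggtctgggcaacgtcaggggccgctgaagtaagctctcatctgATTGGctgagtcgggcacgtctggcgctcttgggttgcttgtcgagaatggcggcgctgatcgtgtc
Mrps18b held the NRF1 letters at bases 28 and 279 and the ETS letters on the opposite strand at base 294. In Mrps27 the ETS letters stood on the opposite strand at base 203 and the YY1 letters at base 265. Mrpl49 held the YY1 letters at base 267, just after its start site as in Mrps27. Mrpl50 held the NF-Y letters at base 18 and, on the opposite strand, at base 234.

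Libraries differed widely in depth: 151216 to 2250654 counts in 10 of the 11 HSC libraries, and 3387389 to 12130358 in MEP. The second HSC S211I library is shown apart where single libraries are given, but it enters the fits of the tests under its label. It held 13154016 counts, its log expression correlated with the MEP mean at r = 0.976 across genes (0.371 to 0.699 in the other HSC libraries, 0.981 to 0.992 in MEP), and its summed stem-cell markers were 1266 CPM (each count scaled to a common library total) against 2140 to 7219 in the other 10. All 16 stem-cell markers had counts somewhere in those 10 libraries, though Slamf1 and Hoxb5 had none in WT. The 14 MEP markers summed to 2321, 5040 and 6650 CPM in WT HSC and to 8221 to 20114 in mutant HSC without the library set apart. They summed to 23432 in that library and to 22766 to 27199 in MEP. Stem-cell markers summed to 4907 to 7219 CPM in WT HSC and to 2140 to 4508 in the same mutant HSC libraries. Mutant and WT HSC libraries thus differed in these markers as well as in genotype. The 12 stromal and endothelial markers summed to 25.9 to 16514 CPM in the 10 HSC libraries, highest in the first P216L one. They summed to 441 to 1743 CPM in WT HSC, 2328 in the first S211I library and 4998 in the third double-mutant one. In the library set apart they summed to 79.4 CPM, and in MEP to 28.6 to 79.5. The 14 neutrophil and monocyte markers summed to 274 to 5004 CPM in the 10 HSC libraries, highest in the first double-mutant one and with Ctsg and Csf1r at 0 in each, to 283 in the library set apart and to 8.82 to 218 in MEP. The 12 megakaryocyte markers summed to 0 to 655 CPM in the 10, with Mpig6b and Tubb1 at 0 in each, to 72.9 in the library set apart and to 20.2 to 43.7 in MEP. The 11 lymphoid markers summed to 4.16 to 185 CPM in the 10, with Vpreb1, Cd3d, Il7r and Gzma at 0 in each, to 44.9 in the library set apart and to 17.5 to 46.4 in MEP. The part of these differences in the results below was not tested.

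Transcripts of the 78 genes took a larger share of the RNA in MEP than in HSC. Their summed level was 3694, 5542 and 4959 CPM in WT HSC, 5802, 6714 and 5087 in P216L HSC, 5514 in the first S211I HSC library, and 5313, 4910 and 6740 in double-mutant HSC. The WT MEP libraries had 8278 and 7601 CPM, P216L MEP 8422, 7572 and 9551, S211I MEP 7436 and 7637, and double-mutant MEP 7712, 8117 and 8485. No HSC library of these 10 reached the lowest MEP library. The HSC S211I library set apart stood between them at 7265 CPM.

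**Figure D1:**
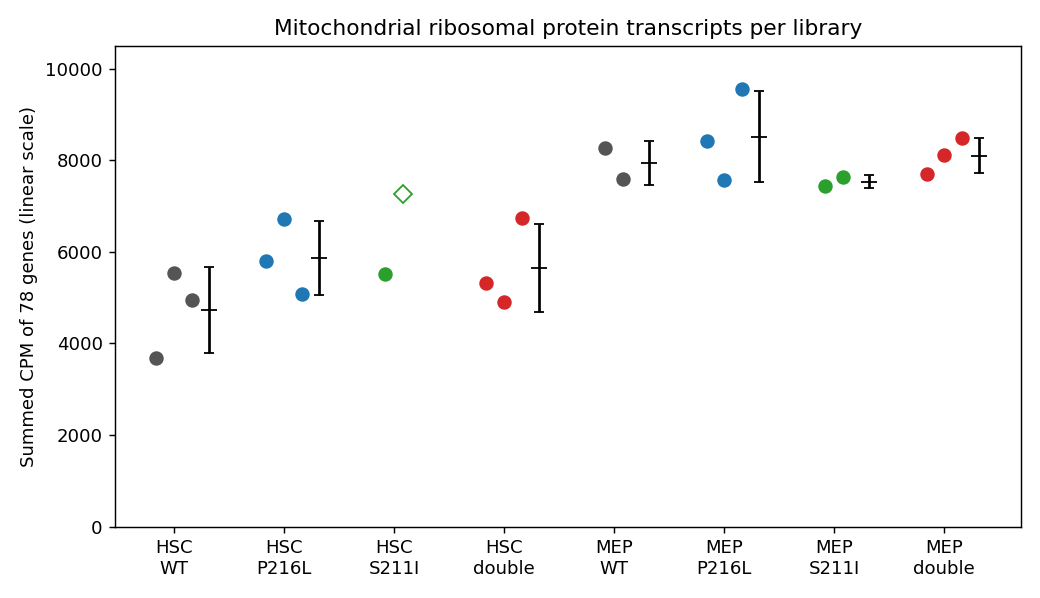
Summed CPM of the 78 mitochondrial ribosomal protein genes (linear axis) in each library, by cell type and Etv6 genotype; bars are mean ± SD, and the open diamond is the second HSC S211I library, left out of any mean. The 10 HSC points lie at 3694 to 6740 CPM and the 10 MEP points at 7436 to 9551.

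In WT, the mean was 4731 ± 945 CPM in HSC (SD, n = 3) and 7940 ± 479 in MEP (SD, n = 2), a difference of 0.75 on the log2 scale or 1.68-fold. The spread between replicates was 0.32 on that scale. The difference was 1.39 when libraries were scaled by trimmed means of M values (TMM) and 0.67 with median-ratio (RLE) scaling. In bulk RNA such as this, fewer cells expressing a gene and less RNA per cell cannot be told apart. Large-subunit transcripts summed to 2.05 to 2.19 times the small-subunit ones in every MEP library, and to 1.38 to 2.55 times in the 10 HSC libraries, so the MEP ratios lay within the range of the HSC ones.

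All 78 genes were detected in each MEP library. The HSC libraries missed many of them: 45, 54 and 65 were detected in WT, 44, 70 and 75 in P216L, 60 in the first S211I library, and 70, 68 and 77 in the double mutant, whereas the library set apart held all 78. Detection was lower over all genes too, with 3988 to 10280 genes in the 10 HSC libraries and 12723 to 15914 in MEP. The first P216L HSC library had the fewest members and the fewest genes. Depth was one difference between the cell types, so detection was also computed for 151215 counts, just under the shallowest library. At that depth an MEP library would be expected to show 77.1 to 77.8 of the genes, and the 10 HSC libraries 41.4 to 74.5. The same figure for all genes is not given here. Only 13 genes had counts in all 10 HSC libraries, 22 were at 0 in at least 3 of them, and 5 were at 0 in at least 5 (Mrpl9, Mrpl23, Mrpl43, Mrpl47 and Mrps2).

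**Figure D2:**
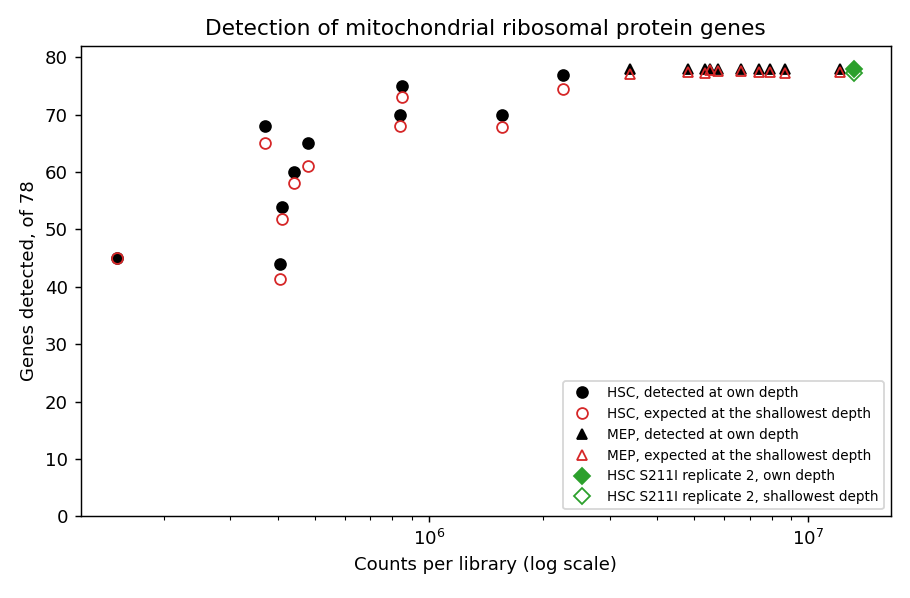
Number of the 78 genes with a count (filled) and number expected at 151215 counts (open) against counts per library on a log axis; circles are HSC, triangles MEP and diamonds the second HSC S211I library. MEP libraries stay at 77.1 or more at the shallow depth, whereas HSC libraries lie at 41.4 to 74.5.

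The order of levels among the genes was alike between MEP libraries and loose between HSC libraries. Across the 78 genes, Spearman's rho between pairs of MEP libraries was 0.934 to 0.977 (median 0.961, 45 pairs), and between pairs of the 10 HSC libraries -0.0551 to 0.721 (median 0.258, 45 pairs). The library set apart had rho of 0.938 to 0.969 with the MEP libraries. These rho values are descriptions across genes that share their libraries, and the part of depth in them was not tested. No rho for other genes is given here. Over all genes tested, the 10 HSC libraries had r of 0.371 to 0.699 with the MEP mean, and MEP libraries 0.981 to 0.992.

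Single genes varied accordingly. Over the 10 MEP libraries, genotypes together, the coefficient of variation had a median of 11.4% and was under 20% for 77 of the 78 genes, from 5.94% for Mrps7, a protein of the small-subunit head, to 77.6% for Mrpl23. The 2877 genes of similar MEP level (51.9 to 163 CPM) had a median of 12.6%. In the 10 HSC libraries the median was 92.2%, and 29 genes exceeded 100%. Mrps14, of the small-subunit head, was the steadiest there at 28.6%, with a lowest level of 119 CPM, a median of 189 and a highest of 280.2, against 193, 210 and 304 CPM in MEP. No set of other genes at similar level was computed for HSC. Over all genes tested, of any level, edgeR fitted a common coefficient of variation within groups of 1.6 in HSC and 0.174 in MEP. The HSC fit includes the library set apart. The spread was thus wider in HSC over all genes too, by a measure unlike the one above. Whether members differ from other genes in this was not tested.

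**Figure D3:**
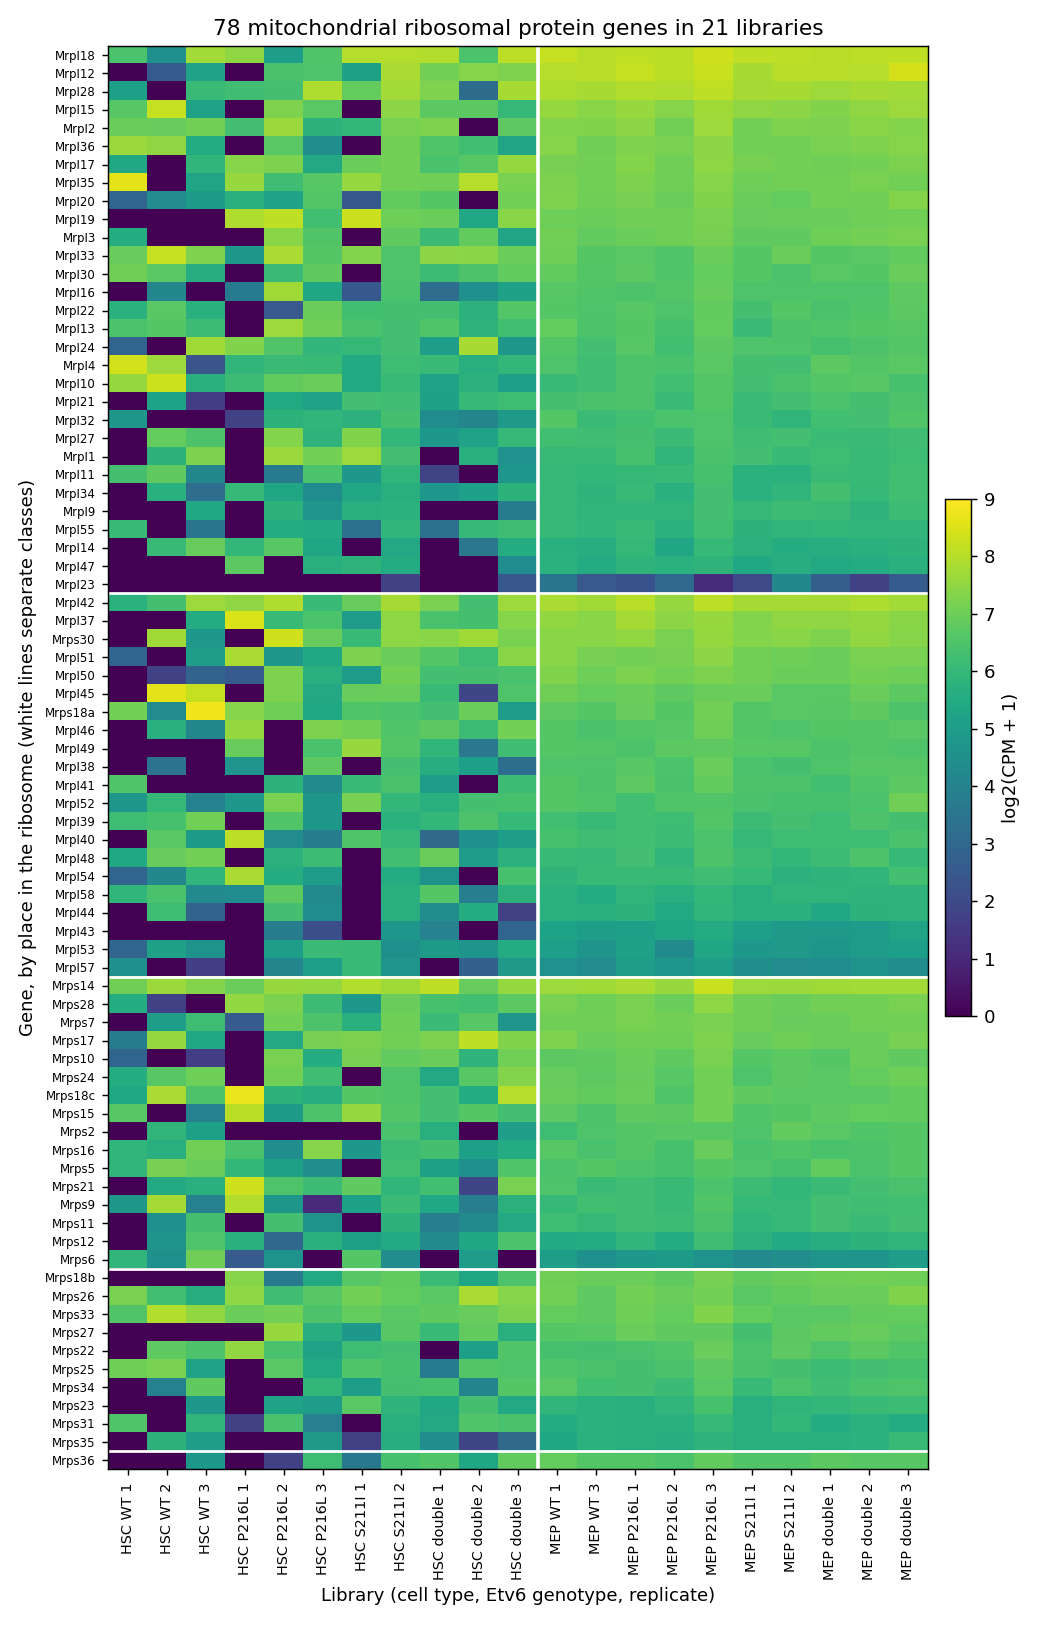
Level of each of the 78 genes, as log2(CPM + 1), in all 21 libraries, grouped by subunit and by bacterial or mitochondria-specific origin and ordered within a group by mean MEP level. MEP columns look alike, HSC columns hold scattered dark cells at 0, and the second HSC S211I column looks like MEP, with all 78 genes detected.

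Per kilobase of coding sequence, the highest mean levels in MEP were those of Mrps14 at 569 ± 82.8 CPM (SD, n = 10), the small large-subunit protein Mrpl33 at 554 ± 68.6, and Mrpl42, a mitochondria-specific large-subunit protein, at 533 ± 57.9. Their spreads overlap, so the order of the 3 is not settled. Mrps14 has a long untranslated part, and per kilobase of whole transcript it ranked 34 of 78, while Mrpl42 ranked 1 and Mrpl33 ranked 3. The lowest levels per kilobase of coding sequence were those of Mrpl23, which lines the exit tunnel, at 11.8 ± 9.17 CPM, Mrps31 at 45.2 ± 5.55 and Mrpl44, which carries a ribonuclease III fold, at 51.2 ± 5.58. This order too depends on the length used. Over the 8 MEP libraries other than S211I, Mrps31, Mrpl44 and Mrps35 had 51.2, 51.5 and 51.8 CPM. Their whole transcripts have 1515, 1424 and 4162 bases, so per kilobase of whole transcript Mrps35 stood below the other genes of these 3. Mrpl23 was the lowest member in MEP, with 1.21 to 17.3 CPM in MEP and no count in 9 of the 10 HSC libraries.

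Mammals carry 3 copies related to one bacterial small-subunit protein. Per kilobase of coding sequence their levels over the 10 MEP libraries were 179 ± 21.9 CPM for Mrps18a, whose product sits in the large subunit, 166 ± 12.6 for Mrps18b and 261 ± 32 for Mrps18c (SD, n = 10), so Mrps18c stood above the other 2, whose spreads overlap. In CPM not scaled to length, each varied little in MEP, with 88.8 to 133 for Mrps18a, 109 to 143 for Mrps18b and 92.7 to 139 for Mrps18c. Mrps18b had no count in any WT HSC library and 11.9 to 165 CPM in the 7 mutant ones, whereas Mrps18a was at 139, 19.5 and 450 CPM in WT HSC and Mrps18c at 39.7, 232 and 89.4.

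Comparing WT MEP with WT HSC asked which members differ with cell identity when Etv6 is intact. In this comparison 7 of the 78 genes were higher in MEP and 0 were lower, 8.97% of the members, by edgeR's quasi-likelihood test at an adjusted p under 0.05 over 12036 genes. Of all genes tested 4.1% were called, 3.62% in the higher direction. An unadjusted p under 0.05 was reached by 23 members (29.5%) against 27.8% of all genes. The 7 were Mrpl12, Mrpl19, Mrpl49 and Mrpl50 of the large subunit and Mrps10, Mrps18b and Mrps27 of the small subunit. The 4 with the smallest p had no count in any WT HSC library.

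Mrpl19, a large-subunit protein near the interface of the subunits, was at 0, 0 and 0 CPM in WT HSC and at 127 and 125 CPM in WT MEP. Against a limit of 3 counts over the 3 WT HSC libraries together (2.88 CPM), MEP was at least 43.8-fold higher (edgeR adjusted p = 0.002). Mrps18b, also at 0 in the 3 HSC libraries, had 131 and 125 CPM in WT MEP, at least 44.4-fold higher (edgeR adjusted p = 0.0037).

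Mrps27, a pentatricopeptide-repeat protein specific to mitochondria, was at 0 in the 3 HSC libraries and at 96.8 and 100.2 CPM in MEP, at least 34.2-fold higher (edgeR adjusted p = 0.016). Mrpl49, a mitochondria-specific protein of the large subunit, was at 0 in HSC and at 98.2 and 94.7 CPM in MEP, at least 33.5-fold higher (edgeR adjusted p = 0.016). A further 3 genes were at 0 in all 3 WT HSC libraries without passing: Mrpl23, Mrpl43 and Mrpl47. The share of all genes at 0 in those 3 libraries is not given here.

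The other 3 called genes had a few counts in HSC. Mrpl50, specific to mitochondria, was at 0, 2.44 and 6.24 CPM in HSC and at 156 and 128 in MEP, a log2 fold change of 5.91 ± 1.45 (SE; edgeR adjusted p = 0.022). Mrps10, of the small-subunit head, was at 6.61, 0 and 2.08 CPM against 107 and 112, a log2 fold change of 6.28 ± 1.64 (SE; edgeR adjusted p = 0.03). Mrpl12, the stalk protein that recruits translation factors and also binds the mitochondrial RNA polymerase, was at 0, 4.87 and 35.4 CPM against 254 and 261, a log2 fold change of 4.62 ± 1.34 (SE; edgeR adjusted p = 0.046). In each of the 7 the MEP libraries lay above every WT HSC library.

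At the other end stood 3 genes with the lowest fold changes, none of which passed. Mrpl10, the base of the stalk that carries Mrpl12, was at 192, 319 and 52 CPM in HSC and at 66.9 and 74 in MEP (log2 fold change -0.68 ± 1.12, edgeR adjusted p = 0.75). Mrps6 was at 59.5, 21.9 and 131 CPM against 32.2 and 22.1 (-0.81 ± 1.82, edgeR adjusted p = 0.83). Mrps18a, with the HSC values above, was at 107 and 98.4 CPM in MEP (-0.44 ± 1.16, edgeR adjusted p = 0.85). The ranges of the 2 cell types overlap in each of the 3. In the TMM-scaled fit the sign turned without the second WT HSC library for Mrpl10 (0.14). It turned without the third for Mrps6 (0.32) and Mrps18a (1.34).

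**Figure D4:**
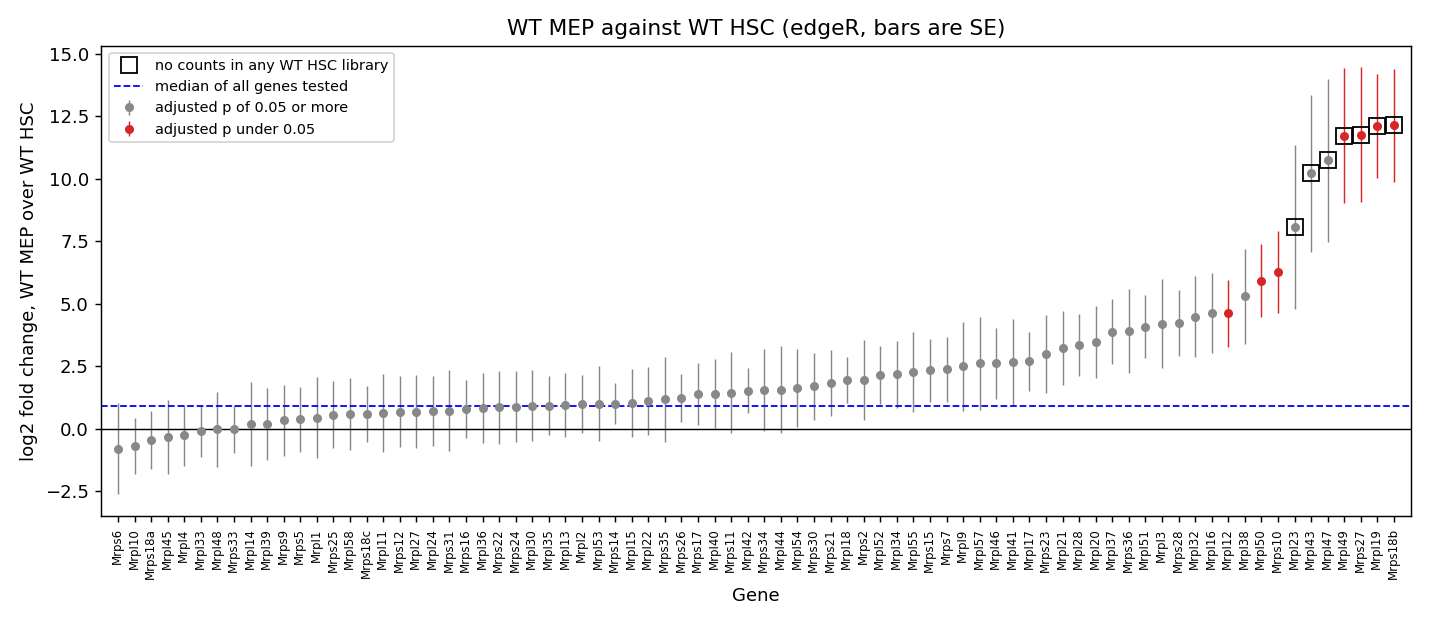
log2 fold change of WT MEP over WT HSC for the 78 genes with SE bars; red marks an adjusted p under 0.05, squares mark genes with no count in WT HSC, and the dashed line is the median of all 12036 genes (0.90). The 7 squares stand at the right end, 4 of them red, and their fitted height depends on the fit's prior count.

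The median log2 fold change of the 78 was 1.53, or 1.48 with the 7 genes at 0 set to their lower bounds, against 0.90 over all genes tested. It was positive in 70 of the 78 genes (89.7%, against 62.9% of all genes) and above the all-gene median in 53. RLE scaling moved the all-gene median to 0.17, the member median to 0.87 and the positive members to 59. Without the first WT HSC library, which held 151216 counts, the member median of 1.14 no longer exceeded the all-gene median of 1.17. The counts of called members that follow, except the last, stand without that setting's share of all genes. The number of members called was 2 without the second WT HSC library, 12 without the third, 4 without either WT MEP library and 0 when the 5 WT libraries were fitted alone, where no gene at all passed. Over 14 alternatives, Mrpl19 and Mrps18b passed in 13 each, Mrps27 and Mrpl49 in 12, Mrpl50 in 9, and Mrps10 and Mrpl12 in 8.

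On the unscaled CPM, 59 of the 78 genes had a higher mean in WT MEP than in WT HSC, and the median gene stood at 92.8 CPM against 38.2. The 2 WT MEP libraries lay above all 3 WT HSC libraries in 34 genes (43.6%), and 35.8% of all tested genes did so. They lay below in 0 members, against 8.24% of genes.

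The same cell-type comparison within the mutants gave lower medians and fewer calls. In P216L the median log2 fold change of the members was 1.02 (all genes 0.56), and 0 were called. It was positive in 75 of 78 members (96.2%), against 62.4% of all genes. There edgeR called 0.0748% of all genes. DESeq2 called 1 member, and its share of all genes is not given here. An unadjusted p under 0.05 was reached by 4 members (5.13%) against 19.7% of all genes. In the double mutant the median was 0.89 (all genes 0.09), with 72 members positive (92.3%, against 52.4% of all genes). There edgeR called 0 members and 0.241% of genes, and DESeq2 called 0 members. An unadjusted p under 0.05 was reached by 1 member (1.28%) against 16.3% of all genes. The P216L comparison called 4 members without the third HSC P216L library and 1 without the HSC S211I library set apart. The shares of all genes called in those fits are not given here, so no excess can be read from these counts. The 2 mutant comparisons and the WT one were not tested against each other over the list. Mutant HSC libraries also had higher summed MEP markers than WT HSC, and the part of this was not tested.

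Averaged over WT, P216L and the double mutant, 19 of the 78 genes were higher in MEP and 0 lower (24.4%). Of all genes 22.2% were called, 16.2% as higher. The 19 comprised the 7 called in WT and Mrpl16, Mrpl18, Mrpl23, Mrpl28, Mrpl32, Mrpl37, Mrpl38, Mrpl43, Mrpl47, Mrpl51, Mrps2 and Mrps28. By class they were 8 of 30 large-subunit genes with a bacterial counterpart, 6 of 21 mitochondria-specific large-subunit genes, 3 of 16 bacterial-type small-subunit genes and 2 of 10 mitochondria-specific ones. The median was 1.22 against 0.73 over all genes, and 77 of the 78 were positive (98.7%, against 66.8% of all genes). The counts of called members that follow stand without that setting's share of all genes. Leaving out either WT MEP library brought the count to 11, and RLE scaling also gave 11.

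In 4 genes every MEP library lay above each of the 10 HSC libraries, 5.13% of the members against 3.65% of genes tested. Mrpl12 spanned 0 to 165 CPM in HSC (median 60.1) and 225 to 344 in MEP (median 261). Mrps2, a small-subunit protein, spanned 0 to 58.5 CPM in HSC, with 6 of the 10 libraries at 0, and 73.1 to 113 in MEP. Mrpl9 spanned 0 to 54.9 CPM against 56.7 to 77.9, and Mrpl43 spanned 0 to 14.8 against 28.1 to 45. The HSC S211I library set apart fell just short of the MEP range for Mrpl43 (25.7 CPM) and Mrpl9 (53.4) and within it for Mrpl12 (231) and Mrps2 (83.5). No member had every MEP library below the 10 HSC libraries, against 0.947% of genes.

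Several of these genes share exon bases with a neighbour. Of the 78, 23 overlap an exon of another protein-coding gene, 20 on the opposite strand and 4 on the same one. Mrpl19 overlaps Gcfc2, Mrpl49 overlaps Syvn1, Mrpl43 overlaps Twnk and Mrpl47 overlaps Actl6a and Ndufb5, all on the opposite strand, and Mrps6 overlaps Slc5a3 on the same one. The library kit does not mark strand, so counts of these genes are uncertain where reads fall in shared bases. The reference lists 6 pseudogenes of the family and the table holds a row for none of them.

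Other genes of the pathway were read from lists chosen with earlier results of these data known. Of all genes tested in WT MEP against WT HSC, 4.1% were called, 3.62% as higher. Of 6 genes for mitochondrial ribosome proteins or partners outside the family names, 0 passed in WT MEP against WT HSC, though all 6 were positive. Among them Dap3, a GTP-binding small-subunit protein, stood at 35.7 ± 31.3 CPM in HSC and 243 ± 12 in MEP (edgeR adjusted p = 0.062), and Ptcd3 at 66.9 ± 71.7 and 339 ± 11.5 (edgeR adjusted p = 0.063). Of 13 translation factors, 1 was higher and 0 lower: Mrrf, which recycles the ribosome after termination, at 0 CPM in the 3 HSC libraries and 31.3 ± 1.89 in MEP (edgeR adjusted p = 0.047). Of 26 genes of ribosome assembly and rRNA modification, 0 passed.

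Mitochondrial aminoacyl-tRNA synthetases charge the tRNAs that the ribosome reads. Of 20 tested, 3 were higher and 0 lower: Iars2, at 10.1 ± 9.92 CPM in WT HSC and 253 ± 3.11 in WT MEP (edgeR adjusted p = 0.031), and Vars2 and Fars2, both at 0 in the 3 HSC libraries and at 63.9 ± 9.37 and 47.8 ± 6.51 CPM in MEP. Of 13 genes of mitochondrial transcription and DNA maintenance, only the DNA polymerase Polg passed, at 0.812 ± 1.41 against 102 ± 3.67 CPM (edgeR adjusted p = 0.043).

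Among 16 genes of import and mitochondrial mass, 4 were higher and 0 lower. The chaperonin Hspd1 rose from 322 ± 325 to 1480 ± 93.2 CPM, its co-chaperonin Hspe1 from 24.7 ± 14.7 to 301 ± 23.5, the prohibitin Phb2 from 84.3 ± 27.1 to 771 ± 28.4, and the import pore Tomm40 from 35.2 ± 33.3 to 391 ± 32.7 (edgeR adjusted p of 0.0091 to 0.017). Of 11 regulators of mitochondrial genes, Myc alone passed, at 204 ± 103 CPM in HSC and 748 ± 120 in MEP (edgeR adjusted p = 0.0097). Others differed in both directions without passing. Mycn went from 207 ± 82.1 to 4.34 ± 2.96 CPM (edgeR adjusted p = 0.08) and Ppargc1a from 13.9 ± 24 to 0 (edgeR adjusted p = 0.081). Gabpb1 was also lower in MEP, whereas Nrf1 and Gabpa were higher (edgeR adjusted p of 0.21 to 0.56). Cytosolic ribosomal proteins had 10 of 76 genes higher and a median log2 fold change of 1.97, and oxidative phosphorylation subunits 2 of 80 and 1.73, both beside the 1.53 of the members. All of these are relative to RNA content and share the all-gene shift given above.

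Within HSC, the question was whether the Etv6 changes moved the genes. Each mutant HSC library also had higher summed MEP markers and lower summed stem-cell markers than the WT ones. The part of this in the comparisons was not tested. None of the 76 members tested passed in any of the 4 comparisons by edgeR (Mrpl23 and Mrpl43 had too few counts). Of all 9471 genes, 0.106% were called in P216L against WT, 0.0845% in S211I, 0.0739% in the double mutant, and 0.0211% in the double mutant against P216L. Members with an unadjusted p under 0.05 numbered 6, 6, 5 and 1 in that order (7.89, 7.89, 6.58 and 1.32% of those tested), against 12.9, 8.15, 10.5 and 6.97% of all genes. DESeq2 called 3, 2, 2 and 0 members, and its shares of all genes are not given here. The S211I group holds both its libraries, so its counts above and its median and SE below include the one set apart, whose profile is close to MEP. Its median without that library is not given here. Median log2 fold changes against WT were 0.55, 0.86 and 0.65 (all genes 0.13, 0.43 and 0.44). The median SE of a member was 2.28, 2.53 and 2.29 on the log2 scale, so even differences of many-fold could go undetected.

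Mrpl19 had the smallest p in each of the 3 comparisons with WT. It was at 0 in the 3 WT HSC libraries, at 241, 278 and 76.1 CPM in P216L, at 308 in the first S211I library with 129 in the one set apart, and at 124, 40.6 and 168 in the double mutant. Every mutant HSC library lay above the WT ones, which together held 1041938 counts. The share of all genes with this pattern is not given here. The edgeR adjusted p was 0.17, 0.21 and 0.31, and the gene passed in 2 alternatives of each comparison (of 15, 13 and 15). In MEP the gene stayed within 118 to 147 CPM across all 10 libraries.

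The difference between the P216L effects in MEP and in HSC was tested for the same gene, and it was the only member called: -12.17 ± 2.4 on the log2 scale (SE; edgeR adjusted p = 0.037), 1 of 78 members (1.28%) against 0.0997% of genes. An unadjusted p under 0.05 was reached by 9 members (11.5%) against 16.2% of all genes. The WT HSC value of 0 sets the size of this estimate, which is no bound. The call was lost in 12 of 20 alternatives, among them leaving out the second WT HSC library (edgeR adjusted p = 0.075), the HSC S211I library set apart (0.053) or any 1 of the 5 MEP libraries compared (0.16 to 0.2). For the double mutant, the corresponding difference for Mrpl19 was -11.72 ± 2.42 (edgeR adjusted p = 0.059) and 0 members passed, with 0.0166% of genes called by edgeR. DESeq2 called 7 members, but its share of all genes is not given here, so no excess can be read from that count. Of the members, 8 (10.3%) had an unadjusted p under 0.05, against 15.2% of all genes. The P216L difference called 2 members without the third WT or the first P216L HSC library. The double-mutant difference called 1 without the first WT or second double-mutant HSC library, and 2 without the third WT HSC library. The shares of all genes called in those fits are not given here.

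Of the other genes with small p in HSC, Mrps27 was at 0 in WT, at 0, 193 and 48.2 CPM in P216L and at 67.9, 114 and 48.9 in the double mutant (edgeR adjusted p = 0.37 and 0.47). Mrpl49 was at 0 in WT and at 195 CPM in the first S211I library, with 96.4 in the one set apart (edgeR adjusted p = 0.54). Between the double mutant and P216L, Mrps2 was at 50.7, 0 and 31.5 CPM against 0, 0 and 0, and Mrpl1, of the mobile stalk at the tRNA exit, at 0, 51.4 and 22.2 against 0, 202 and 138 (edgeR adjusted p = 0.71 and 1.0). The groups overlap in both genes.

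In MEP, where counts were deeper and libraries varied less, no member passed in any comparison of the genotypes. Against WT, P216L, S211I and the double mutant each had 0 of 78 members called by edgeR, DESeq2 and voom, with 0.0%, 0.0% and 0.102% of 10773 genes called by edgeR. Members with an unadjusted p under 0.05 numbered 0, 2 and 1 (0.0, 2.56 and 1.28%), against 5.12, 4.74 and 5.24% of all genes. Apart from Mrpl23, the log2 fold changes ran from -0.16 to 0.46 in P216L, from -0.48 to 0.26 in S211I and from -0.20 to 0.37 in the double mutant, with a median SE of 0.16 to 0.18.

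The 2 genes with the smallest p in each comparison show the size of the differences. In P216L, Mrpl57 was at 31, 25.4 and 31.1 CPM against 22.3 and 19.5 in WT (0.46 ± 0.23, edgeR adjusted p = 0.98). Mrps12, of the decoding centre, was at 59.6, 46.4 and 74.2 CPM against 44.8 and 45.7 (0.38 ± 0.2, edgeR adjusted p = 0.98). The groups do not overlap in either gene, and the share of all genes without overlap is not given here.

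In S211I, Mrpl32 was at 68.5 and 58.3 CPM against 96.7 and 68.9 in WT (-0.42 ± 0.2, edgeR adjusted p = 0.94), and Mrpl13 was at 69.3 and 89.3 against 115 and 89.3 (-0.40 ± 0.19, edgeR adjusted p = 0.94). In the double mutant, Mrpl10 was at 94.9, 99.8 and 81.9 CPM against 66.9 and 74 (0.37 ± 0.16, edgeR adjusted p = 0.94), and Mrpl4 was at 104, 95.2 and 102 against 90.4 and 73.9 (0.28 ± 0.16, edgeR adjusted p = 0.99). Mrpl10 and Mrps22 were the only members whose 8 mutant MEP libraries all lay above the 2 WT ones, 2.56% of the members against 2.26% of genes; none lay below, against 1.63%.

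The 10 MEP libraries also allow each change to be read with and without the other. With the P216L change (6 libraries against 4), 71 of 78 members had a positive difference (91.0%, against 52.2% of all genes). The member median was 0.11 (all genes 0.01). By edgeR 0 members and 0.0186% of genes passed, and DESeq2 and voom called 0 members. An unadjusted p under 0.05 was reached by 6 members (7.69%) against 7.23% of all genes. Mrpl11, at the factor-binding base of the stalk, had the smallest p, with 57.5 ± 5.81 CPM without the change (SD, n = 4) and 70.8 ± 7.66 with it (SD, n = 6), a log2 difference of 0.31 ± 0.12 (edgeR adjusted p = 0.66). Mrps27 followed, at 96.1 ± 10.9 and 113 ± 5.4 CPM (0.24 ± 0.10, edgeR adjusted p = 0.67).

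With the S211I change (5 libraries against 5), 12 of 78 differences were positive (15.4%, against 50.6% of all genes). The member median was -0.09 (all genes 0.00). By edgeR 0 members and 0.00928% of genes passed, and DESeq2 and voom called 0 members. An unadjusted p under 0.05 was reached by 0 members against 3.9% of all genes. Mrpl28 had the smallest p, at 245 ± 20.2 CPM without and 217 ± 8.43 with the change (-0.17 ± 0.08, edgeR adjusted p = 0.99), and Mrpl51 was at 152 ± 16.8 and 136 ± 8.59 (-0.19 ± 0.10, edgeR adjusted p = 0.99). The 2 allele comparisons share libraries.

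Other lists were read beside the members in MEP, and none of their genes passed. For the P216L change, 67 of 76 cytosolic ribosomal protein genes and 70 of 79 oxidative phosphorylation genes were positive, with medians of 0.10 and 0.09. For the S211I change, 8 of 76 and 13 of 79 were positive, with medians of -0.11 and -0.10. One library weighed on both: the third P216L MEP library, the shallowest of MEP at 3387389 counts, was the highest of the 10 for 54 of the 78 members. Without it the member median was 0.06 for the P216L change (62 positive) and -0.05 for the S211I change (24 positive). In the comparison of P216L MEP with WT the median went from 0.10 to -0.0045 and the positive members from 60 to 38.

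**Figure D5:**
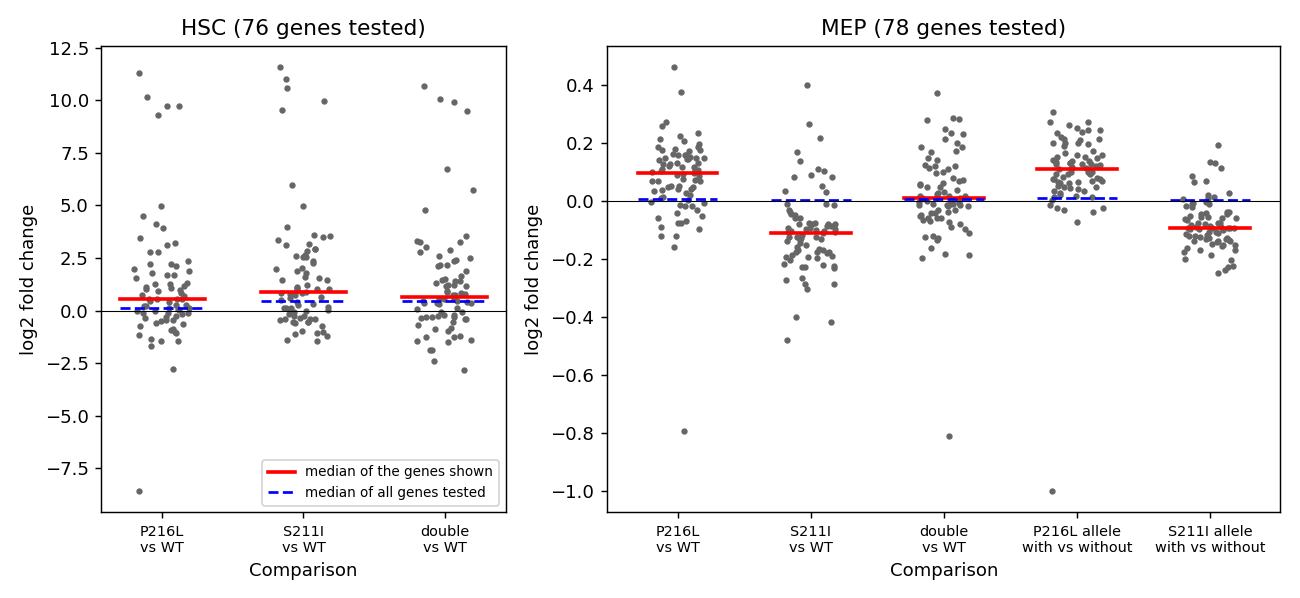
log2 fold changes of single members (points) in each genotype comparison within HSC (left, 76 genes) and within MEP (right, 78 genes; the axes differ), with the member median in red and the all-gene median dashed. MEP medians lie within -0.11 to 0.11, whereas single HSC genes scatter over several log2 units.

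Members with and without promoter letters were set side by side for the cell-type difference. The 26 members with the ETS letters had a median log2 fold change of 1.52 in WT MEP against WT HSC, with 2 called, and the 43 with a window but without them 1.51, with 4 called. The 12 with YY1 letters had 1.48 and the 57 without 1.56, and the 8 with NRF1 letters had 1.80 and the 61 without 1.51. These medians are descriptions and were not tested against each other.

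Mrps36, whose product works in the citric acid cycle and not in the ribosome, was at 0, 0 and 27.1 CPM in WT HSC and at 116 and 95.9 in WT MEP, and its difference did not pass (edgeR adjusted p = 0.13). Across the 10 HSC libraries it spanned 0 to 115 CPM with 3 at 0, and across MEP 86.4 to 116.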

How the data were processed

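RNA of sorted HSC and MEP was extracted with NucleoSpin RNA XS and made into SMART-Seq v4 Ultra Low Input libraries, per the labels. The authors deposited estimated counts per Entrez gene, with FastQC, Salmon and GRCm39 named in the submitters' processing notes. Their versions, the annotation and the step from transcripts to genes were not given in the sources used here. In each library 6.09 to 33.1% of nonzero values were not whole, so values were rounded for the tests. Symbols were taken for 30211 of 30519 genes from RefSeq (GRCm38.p6); the remaining genes held 0.0442% of the counts.

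CPM was each count divided by the library's total, with no further scaling. Tests used edgeR 4.0.16 in R 4.3.3 (TMM, quasi-likelihood, a minimum count of 10 and total of 15, Benjamini-Hochberg adjustment over all genes of a comparison, threshold 0.05), with 15 comparisons. Comparisons between cell types were fitted over all 21 libraries, and those within a cell type over its 11 HSC or 10 MEP libraries, so the HSC S211I library set apart enters these fits and the spread estimate. Alternatives were RLE scaling, no filter, voom with quality weights (limma 3.58.1), DESeq2 1.42.0, a replicate block, fits restricted to the groups compared, and leaving out single libraries; 2 were chosen after seeing the data, leaving out the 3 HSC libraries nearest to MEP and thinning libraries to 151215 counts. Fits were also run on simulated data, with changes placed only in genes above a set level in the reference group. Genes without counts in WT HSC were therefore not covered, and the outcome is not given here. Apart from the fit of the WT libraries alone, member counts under an alternative come without that alternative's share of all genes. Fold bounds use 3 counts and cover counting error only; SMART-Seq v4 reads carry no molecular identifiers here. A count is worth 0.444 to 6.61 CPM in the 10 HSC libraries and 0.0824 to 0.295 CPM in MEP.

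Genes named are all called members and the 3 lowest fold changes in WT, and the 3 highest and 3 lowest per kilobase in MEP. Also named are called members or otherwise the 2 smallest p in each mutant comparison, and Mrps18a, Mrps18b, Mrps18c, Mrps36, Mrpl12 and Mrps12. Dap3, Ptcd3, Mrps2, Mrpl9, Mrpl43, Mrps7, Mrps22, Mrps35, Mycn, Ppargc1a, Gabpb1, Nrf1 and Gabpa were named after their values were seen. The members and lists were chosen with earlier results of these data known.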

Additional observations from a re-analysis of the deposited data

Results flagged for a closer look

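The effect of P216L on Mrpl19 differed between MEP and HSC by -12.17 on the log2 scale, by a test of the difference itself (edgeR adjusted p = 0.037). The 3 WT HSC libraries had no count of the gene and the 3 P216L HSC libraries had 241, 278 and 76.1 CPM, while MEP had 127 and 125 CPM in WT and 132, 132 and 147 in P216L. The adjusted p ranged from 1.2e-06 to 0.55 over 20 alternatives and passed in 8 of them. Mrpl19 shares exon bases with Gcfc2 on the opposite strand, and the part of this overlap in the difference was not tested. The P216L HSC libraries also had higher summed MEP markers than the WT ones, and the part of this was not tested.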

How the results depend on the processing

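For WT MEP against WT HSC the 7 calls became 25 with voom, 15 with DESeq2, 0 with only the groups compared, 17 when the 3 HSC libraries nearest to MEP were dropped, and 2 to 12 with single libraries left out. Averaged over genotypes, the 19 became 11 with RLE scaling, 48 with voom, 31 without those 3 libraries, 11 after thinning, and 11 to 27 with single libraries left out. In P216L the 0 became 1 with no filter, 1 with DESeq2, 5 without the 3 libraries and 0 to 4 with single libraries left out; in the double mutant it became 1 without the 3 libraries. The single call for the P216L effect became 0 with no filter, voom, only the groups compared or thinning, 7 with DESeq2 (1 higher, 6 lower), 2 without the 3 libraries and 0 to 2 with single libraries left out; the double-mutant effect became 7 with DESeq2, 2 without the 3 libraries and 0 to 2 with single libraries left out. Within HSC the 0 calls became 1, 8 and 3 with voom and 3, 2 and 2 with DESeq2 for P216L, S211I and the double mutant. The summed WT difference of 0.75 became 1.39 with TMM factors. Mrps18a turned sign with voom (0.44). With single libraries left out, it ranged from -0.90 to 1.34, Mrps6 from -1.16 to 0.32 and Mrpl10 from -1.09 to 0.14. These counts cover members only. The share of all genes called under each alternative is not given here, so they do not show whether members were called more often than other genes. The cause of these moves was not tested.

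Replicate numbers are shared between groups, but same-numbered libraries did not deviate together: their correlations were -0.067 to 0.246 in HSC, -0.092 to 0.034 in MEP and -0.066 to 0.027 between the cell types, and 4 of 11 HSC and 1 of 10 MEP libraries correlated best with their own number. With the replicate block the calls were 7 in WT, 20 averaged over genotypes and 0 for the P216L effect. Depth limits the HSC results: the shallowest library gives 6.61 CPM for 1 count.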
